A study of Rattus norvegicus with 458 samples.

Results

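The members of the miR-148 and miR-152 family were followed through 23 tissues of naïve Sprague Dawley rats aged 12 to 13 weeks, in which small RNA was sequenced to map where each microRNA is found. Members were taken by name: any name in the deposited microRNA count table that is miR-148a, miR-148b or miR-152, of either arm, or that holds one of these as part of a composite name, with precursor names left out. This gave 9 of the 7534 names, of which 6 were single and 3 composite, and 2033 of the 264294 sequence variants (isomiRs) in the companion table. A composite name joins every name that the authors could give to a sequence. The miR-148a-3p reads are split in this way between the plain name miR-148a-3p and the composite chr4_14984-3p_seed(miR-152-3p);miR-148a-3p, in which the leading name is a hairpin that the authors predicted on chromosome 4.

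The study sampled 10 untreated rats, 5 male and 5 female. Of the 23 tissues, 19 were taken from all 10 rats, testis came from the 5 males, and ovary and uterus came from the 5 females. The labels "Cortex" and "Medulla" are parts of the kidney according to the study's methods. Dorsal root ganglion differs from the rest: RNA of 1 male and 1 female pool was sequenced as 5 libraries each, so its 10 libraries are technical repeats of 2 pools and were summed within each pool for the tests. According to the study's methods Takeda Pharmaceuticals supplied the RNA of this ganglion. Its source and its tissue therefore cannot be told apart. All groups are whole tissue, so fewer cells of a type and less RNA per cell cannot be told apart.

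MicroRNAs are short RNAs cut from a hairpin precursor, which yields a 5p and a 3p arm. The arm that is loaded into an Argonaute protein pairs with target mRNAs mainly through its seed, the stretch near the 5′ end, so family members with the same seed can share targets. miR-148a is known from pancreas and liver, and in liver it is linked to lipid metabolism.

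The mature sequences show how alike the members are, and are printed as RefSeq gives them for the rat build GRCr8, with the seed (bases 2 to 8, counted from the 5′ end) in capitals. RefSeq entries were matched for 5 of the arms.
rno-miR-148a-3p: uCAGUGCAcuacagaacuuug
rno-miR-148b-3p: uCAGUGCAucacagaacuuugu
rno-miR-152-3p: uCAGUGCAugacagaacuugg
rno-miR-148a-5p: aAAGUUCUgagacacucugacuc
rno-miR-152-5p: aGGUUCUGugauacacuccgacu
The 3p arms share the seed CAGUGCA. Over the first 21 bases miR-148a-3p differs from miR-148b-3p by C9U and U10C, with the miR-148a-3p base first. It differs from miR-152-3p by C9U, U10G and U20G. miR-148b-3p and miR-152-3p differ by C10G and U20G. The 5p arms have other seeds, AAGUUCU in miR-148a-5p and GGUUCUG in miR-152-5p. The most abundant sequence deposited as miR-148b-5p was gAAGTTCTgttatacactcaggct, and its bases 2 to 8 are those of the miR-148a-5p seed written as DNA.

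The genes lie on 3 chromosomes. In GRCr8 the miR-148a-3p sequence is at chr4:81664447-81664467 on the minus strand, within Mir148a. The miR-148b-3p sequence is at chr7:136299930-136299951 on the plus strand, within Mir148b and inside the span of the protein-coding gene Copz1. The miR-152-3p sequence is at chr10:82329435-82329455 on the plus strand, within Mir152 and inside the span of the protein-coding gene Copz2, a paralogue of Copz1. The gene table used here gives no exons, so the position of these hairpins relative to exons of Copz1 and Copz2 was not analysed here. Both host genes encode zeta subunits of the COPI vesicle coat.

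The level of a name in a library is given as CPM, its counts per 1000000 counts of all names in that library. Library totals ran from 376401 to 17725805, with the 5 testis libraries lowest at 376401 to 653651. Each library's profile over the names that are no members, with a mean above 1 CPM, was correlated with that of every other library. In a set of 10 libraries the median correlation with the libraries of another tissue was more than 0.05 above that with their own label, and these are called out of place here. They are 4 duodenum libraries (rats 2, 4, 7 and 11), 3 hippocampus libraries (rats 2, 6 and 7), and 1 each of ovary (rat 11), adrenal (rat 8) and uterus (rat 8). The duodenum ones correlated best with cerebrum (2), hippocampus (1) or adrenal (1), and the hippocampus ones with uterus, duodenum and ovary (1 each). The ovary and uterus ones correlated best with duodenum and the adrenal one with jejunum, and whether labels were exchanged was not tested. Levels for these 5 tissues are given without them unless stated, and tests are given with and without them where the call changes. The RNA integrity number (RIN), a measure of RNA degradation on which higher is more intact, was lowest in pancreas (4.9 to 6.8, median 6.2, against medians of 7.2 to 8.9 in the other tissues with a RIN). According to the labels 35 libraries in 9 tissues came from RNA extracted again, among them all 10 of pancreas and 5 of 10 of liver.

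By sequencing counts miR-148a-3p was the most abundant microRNA of the pancreas. Summed over its single and composite names it took 53.6% to 63.7% of all counts in the 10 pancreas libraries, with a mean of 593532 CPM ± 34029 (SD, n = 10) and a median of 600319. Liver came next at 45519 to 67015 CPM with a median of 55842, so the median in pancreas was 10.8 times that in liver. The lowest level was in whole blood, at 624 to 1033 CPM with a median of 807. All pancreas libraries lay above every library of every other tissue, and no whole blood library reached the median of any solid tissue. The CPM of every other name in pancreas is lowered by the 53.6% to 63.7% that miR-148a-3p took. The 10.8 times over liver is also on this base of all names. With the members left out of the base, mean CPM moved by more than its SD in 1 tissue each for miR-148a-3p, miR-148b-3p and miR-152-3p. That tissue was pancreas, whose CPM is higher on that base. Its place in the orders below, and its fold over other tissues in CPM, therefore hold for the base of all names.

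**Figure D1:**
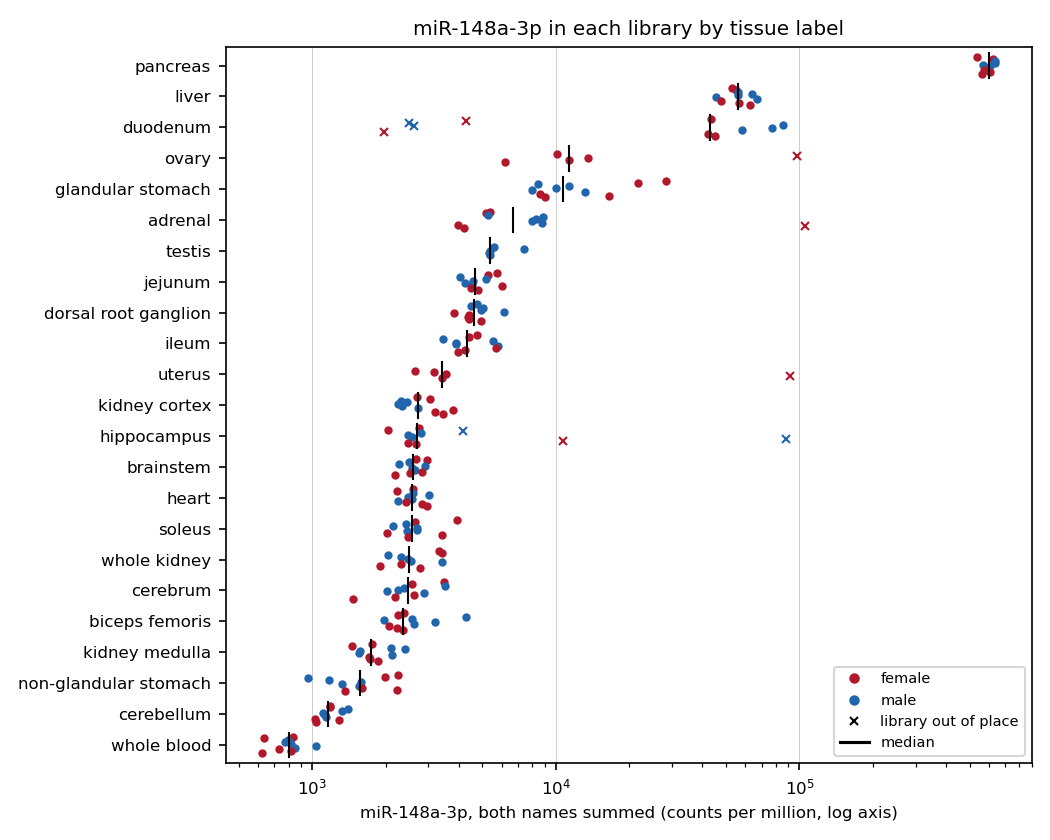
miR-148a-3p (single and composite names summed) in CPM on a log axis, 1 point per library by tissue, red for females and blue for males, crosses for libraries out of place and a black line at each median. The pancreas libraries sit between 536291 and 637201, above all others, and whole blood has the lowest median, 807.

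The tissue contrast was tested with edgeR's quasi-likelihood test over all names, as a tissue against the mean of the other 22. Summed miR-148a-3p was higher in pancreas by 6.93 ± 0.29 on the log2 scale (SE; edgeR adjusted p = 1.34e-55, 10 rats). In that contrast 29.6% of the 1639 names tested were called higher and 13.2% lower. Against liver alone the difference was 3.20 ± 0.53 (edgeR adjusted p = 7.38e-08), where 17.4% of names were called higher. The folds in this test are set on upper-quartile scaled counts, and those factors ran from a median of 0.159 in whole blood to 4.06 in testis. A tissue's direction was therefore checked under 4 scalings (upper quartile, TMM, library totals alone, and DESeq2), over which the median log2 fold of all names moved by 0.11 in soleus and up to 1.98 in whole blood.

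Of the 207 pairs of a member name and a tissue, 34 (16.4%) were called higher under all 4 scalings, where 12.7% of all name and tissue pairs were. Another 32 (15.5%) were called lower under all 4, where 7.19% of all pairs were, and 11 (5.31%) were called in opposite directions by different scalings, against 1.24% of all pairs. Under the upper-quartile scaling alone the members had 51 pairs higher (24.6%, with 23.4% among all pairs) and 43 lower (20.8%, with 11.3% among all pairs). Summed miR-148a-3p was higher under all 4 scalings in 8 tissues. In 4 of these (pancreas, liver, duodenum and glandular stomach) the call also held without the libraries out of place, and in adrenal, hippocampus, ovary and uterus it did not. It was lower under all 4 scalings, and without those libraries, in brainstem, cerebrum, cerebellum, heart, soleus, biceps femoris, kidney cortex and kidney medulla.

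The order of miR-148a-3p below liver was read on the CPM scale. The 6 duodenum libraries in place held 42336 to 85254 CPM with a median of 51436, overlapping with liver. Ovary (6193 to 13526) and glandular stomach (8006 to 28420) followed, then testis (5317 to 7431) and adrenal (3974 to 8899). Jejunum (4043 to 6021), dorsal root ganglion (3838 to 6132) and ileum (3429 to 5816) overlapped with each other. From uterus through kidney cortex, brainstem, heart, hippocampus, soleus, whole kidney and cerebrum to biceps femoris, the medians ran only from 3285 to 2367. Kidney medulla (median 1743), non-glandular stomach (1568) and cerebellum (1160) lay between these and blood.

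Tissues next to each other in that order were compared by edgeR on library totals without the libraries out of place, an alternative chosen after the data had been seen because it shares the scale of the order. Of the 22 pairs of neighbours 14 did not pass the test and 8 did, while 43.4% of all names passed over the same contrasts. The 8 steps were pancreas to liver (log2 3.40), duodenum to ovary (2.50), glandular stomach to testis (1.22), adrenal to jejunum (0.40), ileum to uterus (0.52), biceps femoris to kidney medulla (0.50), non-glandular stomach to cerebellum (0.44) and cerebellum to whole blood (0.58). Liver and duodenum differed by -0.05 ± 0.16 (SE; edgeR adjusted p = 0.883). With the upper-quartile scaling and all libraries 12 of 22 steps passed (35.4% of names did), but 11 of the 22 had a sign against the CPM order. Whole blood is the plainest case: summed miR-148a-3p there differed from the mean of the other tissues by -0.30 with the upper quartile (edgeR adjusted p = 0.589) and by -3.14 with library totals (edgeR adjusted p = 5.04e-13).

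The single name miR-148a-3p carried almost none of this signal. It held 1013 counts in 87 of the 215 libraries, against 29475772 counts in all 215 for the composite, which alone made up 2.81% of every count in the study. In pancreas the single name reached 13.2 to 71.9 CPM with a median of 17.7, and elsewhere its highest tissue median was 2.21 CPM, in the 6 duodenum libraries in place. Its pancreas difference, 7.39 ± 0.42 (SE; edgeR adjusted p = 1.49e-37), stood beside the 6.92 ± 0.29 of the composite (edgeR adjusted p = 1.64e-55). In no library in place did the composite hold less than 99.9% of the miR-148a-3p counts. By a two-sided exact sign-flip test on rats, pancreas had a lower composite share than 2 of 18 other tissues, but the differences of the means lay between -0.0038 and 0.0056 percentage points.

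The sequences behind the names differ at their ends. Those that lead each name are shown, written as DNA as deposited, with bases 2 to 8 in capitals.
miR-148a-3p, composite name, most abundant: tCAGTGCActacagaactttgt
miR-148a-3p, composite name, next: tCAGTGCActacagaactttgtc
miR-148a-3p, composite name, shifted start: tTCAGTGCactacagaactttgt
miR-148a-3p, single name, most abundant: tCAGTGCActacagaactta
miR-148b-3p, most abundant: tCAGTGCAtcacagaactttgttt
miR-148b-3p, next: tCAGTGCAtcacagaactttgtt
miR-152-3p, most abundant: tCAGTGCAtgacagaacttggga
miR-152-3p, next: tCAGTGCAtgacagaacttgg
The most abundant composite sequence held 23605886 reads, 80.1% of the name, and the next, 1 base longer, held 6.28%. The one with a shifted start begins 1 base earlier, which moves the seed, and held 1.55%, but 88.7% of its reads came from the pancreas library of rat 5. Without that library it held 0.186% of the name, and such starts made up 59.7% to 63.5% of the core reads in the 14 runs of 1 lane against at most 0.268% in 430 runs of other lanes. The single-name sequence, 738 reads and 72.9% of the name, ends early with an A. The leading miR-148b-3p sequence (47.4% of its name) carries a run of T at its end, and the leading miR-152-3p sequence held 32.5% of its name.

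The 5p arm of miR-148a followed the 3p arm at a lower level. miR-148a-5p, summed over its single name and its composite chr4_14984-5p;miR-148a-5p, held 5249 to 11291 CPM in pancreas with a median of 8941. Liver followed at 1437 to 2036 with a median of 1720, then the duodenum libraries in place at 432 to 1447. Pancreas and liver did not overlap, and cerebellum was lowest at a median of 34.5. The summed 5p arm was higher in pancreas by 6.05 ± 0.24 (SE; edgeR adjusted p = 3.89e-59), with 5.94 to 6.07 over the 4 scalings. The single name miR-148a-5p held 224 counts in 18 libraries. It was called higher in pancreas by edgeR but not by DESeq2 (log2 0.68, DESeq2 adjusted p = 1).

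The 2 arms did not keep one ratio. The 5p arm made up 0.861% to 1.95% of all miR-148a reads in pancreas, with a median of 1.46%, against 2.39% to 3.54% in liver and 3.51% to 5.98% in whole blood. It did not overlap with those tissues but did with others, such as duodenum at 1.01% to 2.20%. Pancreas was lower than all 18 other tissues of the same 10 rats, by 0.583 to 2.96 percentage points of the means (two-sided exact sign-flip test over rats, adjusted over 18 tissues, largest adjusted p = 0.0371; 0.00195 is the smallest p that 10 rats can give). Without the libraries out of place this held in 17 of 18 tissues, and duodenum no longer passed (1.34% in pancreas and 1.71% in duodenum of the same 6 rats, lower in 5 of 6, exact sign-flip adjusted p = 0.0625). The 5p arm of miR-152 was also a smaller share in pancreas than in 17 of 17 tissues, over at least 8 rats (by 4.17 to 9.99 points, largest adjusted p = 0.00781 by the same exact test). For miR-148b the 5p share was smaller in pancreas than in 18 of 18 tissues over all reads (by 1.06 to 4.77 points, largest adjusted p = 0.0254 by the same exact test), but in pancreas 53.5% of the miR-148b-3p reads held no exact core (bases 3 to 17) of a member. Over reads with the exact miR-148b-3p core it was smaller than in 14 of 18, and against liver the direction turned (3.76% in pancreas, 3.12% in liver, exact sign-flip adjusted p = 0.133). Without the libraries out of place that was 13 of 18, and duodenum no longer passed (6 rats, exact sign-flip adjusted p = 0.108). These shares of miR-148b and miR-152 were added after the data had been seen. Pancreas is also the tissue with the lowest RIN, and the part of RNA integrity in these shares was not tested.

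miR-148b-3p had a flatter distribution. Liver held 627 to 1081 CPM with a median of 876, testis 575 to 967 with a median of 864, and cerebrum 431 to 854 with a median of 720. These tissues overlapped. Hippocampus (579 to 697 in the 7 libraries in place), pancreas (383 to 854), kidney cortex (424 to 572) and brainstem (378 to 678) came next, and non-glandular stomach was lowest at 39.8 to 90.5 with a median of 62.0. The highest tissue median was 14.1 times the lowest. On library totals without the libraries out of place 18 of 22 neighbouring tissues in this order did not pass edgeR's test, and 36.9% of all names did over these contrasts. The steps that passed were hippocampus to pancreas (log2 0.30), whole kidney to kidney medulla (0.39), whole blood to uterus (0.64) and soleus to non-glandular stomach (1.16). The place of pancreas in this order, and its step from hippocampus, are on the base of all names.

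miR-148b-3p was called higher in liver under each scaling. It was higher there by 1.77 ± 0.12 with the upper quartile (SE; edgeR adjusted p = 4.99e-31, with 30.8% of names called higher there), and by 0.78 to 1.77 over the 4 scalings. Kidney cortex, whole kidney and pancreas were also called higher under all 4, and biceps femoris, soleus and non-glandular stomach lower under all 4. In 6 tissues the scalings made calls in opposite directions. In whole blood miR-148b-3p was called higher by 2.39 with the upper quartile (36.1% of names were) but lower, at -0.53, with library totals. In testis it was called lower, at -0.53, with the upper quartile and higher by 1.38 with library totals, and brainstem, cerebrum, ileum and jejunum turned as well.

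Many of the pancreas reads counted as miR-148b-3p did not carry its sequence. Bases 3 to 17 of each 3p member, its core, span positions 9 and 10, at which the members differ. In pancreas 53.5% of the miR-148b-3p reads held none of the 3 cores exactly, against 2.41% in all other tissues together. A set of 25 sequences, each 1 base from both miR-148a-3p and miR-148b-3p over bases 1 to 17, accounted for 17841 of the 18969 reads without a core, and for 10429 of the 10491 such reads in pancreas. The leading sequences are shown because each lies 1 base from either member.
without a core, most abundant: tCAGTGCAccacagaactttgt
without a core, next: tCAGTGCAttacagaactttgt
The most abundant, with 11764 reads, differs from miR-148a-3p by T10C and from miR-148b-3p by T9C. The next, with 3845 reads, differs from miR-148a-3p by C9T and from miR-148b-3p by C10T. In each token the base of the named member comes first. The authors matched reads to rat names before mouse names. By the deposited sources miR-148b-3p comes from rat and from a prediction, and the miR-148a-3p composite from mouse and from a prediction. The single name miR-148a-3p comes from mouse alone.

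Counting only the reads with the exact miR-148b-3p core changed the place of the pancreas. Its level was then 206 to 320 CPM with a median of 253, place 15 of 23 tissues, against place 5 with all reads. These CPM are over all names, of which miR-148a-3p took the largest part in pancreas. The place of exact-core reads on another base was not analysed here. The pancreas difference fell from 0.91 ± 0.13 (SE; edgeR adjusted p = 1.55e-09) to -0.19, which no longer passed (edgeR adjusted p = 0.35). This alternative was added after the data had been seen. Liver and testis kept the highest medians, 845 and 858.

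**Figure D2:**
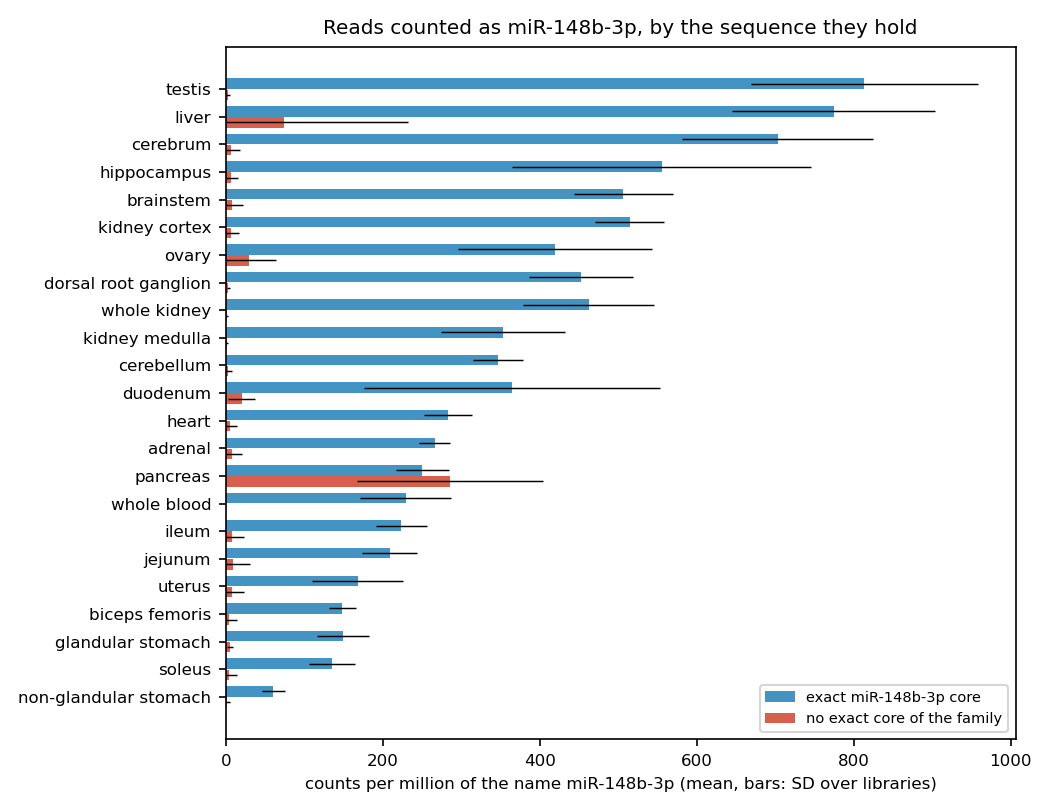
Reads of the name miR-148b-3p by tissue, as mean CPM with SD over libraries, split into reads with its exact core (blue) and reads with no exact core of the family (red). Pancreas is the tissue in which the red bar exceeds the blue one, and tissues are ordered by the median of the exact-core level, in which pancreas is at place 15.

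Reads without a core were also set against miR-148a-3p. Per 1000 miR-148a-3p reads of the same run, and leaving out 1 lane, there were 0 to 3.46 reads without a core in 235 runs with at least 5000 miR-148a-3p reads, with a median of 0.498. In the 24 pancreas runs this ratio had a median of 0.241 and in the 21 liver runs 0.189, against a median of 0.543 in the 211 runs of all tissues but pancreas. The lane left out held 12 such runs, none of pancreas, at 14.7 to 22.02 per 1000 with a median of 16.6, which did not overlap with the other lanes. The liver library of rat 5, with 48.2% of its miR-148b-3p reads without a core, had a run on that lane, and the liver libraries without one held 1.29% to 4.74%. By library the share in pancreas was 37.1% to 68.0%, with no run of that lane. Pancreas was above all 18 other tissues of the same rats by 43.9 to 51.1 points of the means (two-sided exact sign-flip test, largest adjusted p = 0.00391), a share added after the data had been seen.

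miR-152-3p was the second member with its highest level in pancreas. It held 556 to 967 CPM there with a median of 634. Dorsal root ganglion followed at 296 to 442, then ovary (151 to 282 in the 4 libraries in place), liver (149 to 366) and adrenal (141 to 212 in 9). All pancreas libraries lay above those of the other tissues. Cerebrum (17.6 to 44.8), hippocampus (19.4 to 25.5) and cerebellum (13.97 to 26.4) were low, and whole blood held only 0.145 to 5.08 CPM with a median of 0.743. In blood these are 77 reads over 10 libraries, of which 4 libraries held 3 reads or fewer.

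**Figure D3:**
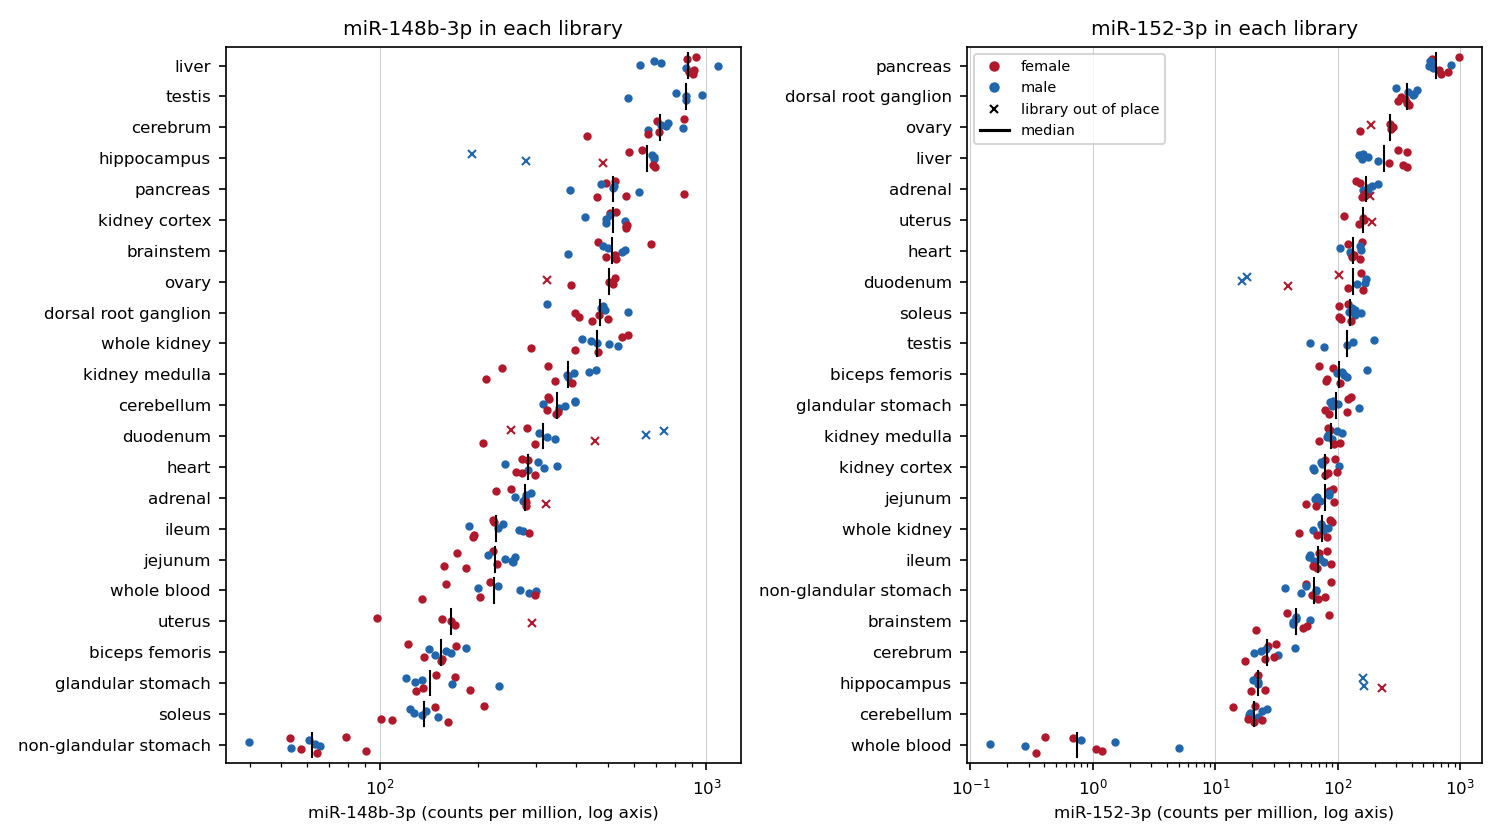
miR-148b-3p and miR-152-3p in CPM on log axes, 1 point per library by tissue, red for females and blue for males, crosses for libraries out of place and a black line at each median. miR-148b-3p medians span 62.0 to 876, while miR-152-3p falls from 634 in pancreas to 0.743 in whole blood.

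The pancreas excess of miR-152-3p did not depend on the scaling. It was 3.14 ± 0.20 (SE; edgeR adjusted p = 2.91e-34), with 3.04 to 3.14 over the 4 scalings. miR-152-3p was also called higher under all 4 in liver, ovary, adrenal and uterus, and lower in whole blood, cerebrum, cerebellum and brainstem. In whole blood the difference was -3.80 with the upper quartile (16.6% of names were called lower) and -6.48 with library totals. On library totals without the libraries out of place 18 of 22 neighbouring tissues in the order did not pass edgeR's test (35.3% of all names did over these contrasts). The 4 that passed were pancreas to dorsal root ganglion (log2 0.88), liver to adrenal (0.56), brainstem to cerebrum (0.81) and cerebellum to whole blood (4.14).

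The other arms and the last composite were scarce. miR-148b-5p was highest in cerebrum at 24.2 to 47.4 CPM with a median of 39.1, and it was lower in pancreas than in the other tissues by 0.56 ± 0.18 on the log2 scale (edgeR adjusted p = 0.00689, with 13.3% of names called lower), and under all 4 scalings. Without the filter on low counts that difference did not pass (-0.56, edgeR adjusted p = 0.354). miR-152-5p was highest in ovary at 47.7 to 56.1 CPM in the 4 libraries in place, with a median of 50.8, and stood at 17.5 to 40.3 in pancreas. miR-152-5p was called higher under all 4 scalings in pancreas, liver, ovary and uterus. The composite miR-148b-3p;miR-152-3p held 160 counts in 75 libraries and its mean was under 1 CPM in every tissue, highest in pancreas at 0.898. Pancreas was the only tissue where it was called higher under all 4 scalings, and the call held without the libraries out of place. With the upper quartile 29.5% of names were called higher there. The paper lists this name as tissue specific, under pancreas, by a rule on raw counts per rat that was not applied here.

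Within the seed group miR-148a-3p held the largest share in every tissue. miR-148a-3p made up 99.7% to 99.8% of the summed 3p reads of the family in pancreas, 99.0% to 99.4% in the duodenum libraries in place and 97.4% to 98.7% in liver. In cerebellum it was 73.9% to 77.4%. Pancreas was higher than all 18 other tissues of the same rats by 1.75 to 23.8 points (two-sided exact sign-flip test, all adjusted p = 0.00195, the smallest that 10 rats can give). Without the libraries out of place it was still higher than all 18, with the smallest difference, 0.594 points, in duodenum (6 rats, exact sign-flip adjusted p = 0.0312). miR-148b-3p took most of the remainder in brain and blood, at 17.8% to 29.0% of the 3p reads in whole blood and 21.1% to 24.7% in cerebellum. miR-152-3p had its largest share in dorsal root ganglion, at 5.51% to 8.17%.

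The duodenum held miR-148a-3p at the level of liver but together with microRNAs of the pancreas. The miR-216a, miR-216b and miR-217 names, which mark pancreas acinar cells, were all present in the table (7 of 7 names) and summed to 8922 to 16944 CPM in pancreas. They summed to 672 to 1515 CPM in the 6 duodenum libraries in place, against 0 to 1.72 in jejunum and 0 to 2.93 in liver. Tissues without acinar cells were not all this low: 9 brainstem libraries held 22.04 to 40.6 CPM of these names and the 10 dorsal root ganglion libraries 23.03 to 53.6. For each acinar read there were 51.0 to 65.0 miR-148a-3p reads in duodenum and 33.7 to 71.4 in pancreas, so the ratios overlapped. In glandular stomach rats 10 and 11 held 319 and 186 CPM of these names and had the highest miR-148a-3p levels there, 28420 and 21740. The out-of-place libraries of adrenal, hippocampus, ovary and uterus with 87683 to 105443 CPM of miR-148a-3p held 1431 to 2222 CPM of them, and also 357528 to 420721 CPM of names that mark gut epithelium. The part of pancreas tissue in these miR-148a-3p levels was not tested.

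**Figure D4:**
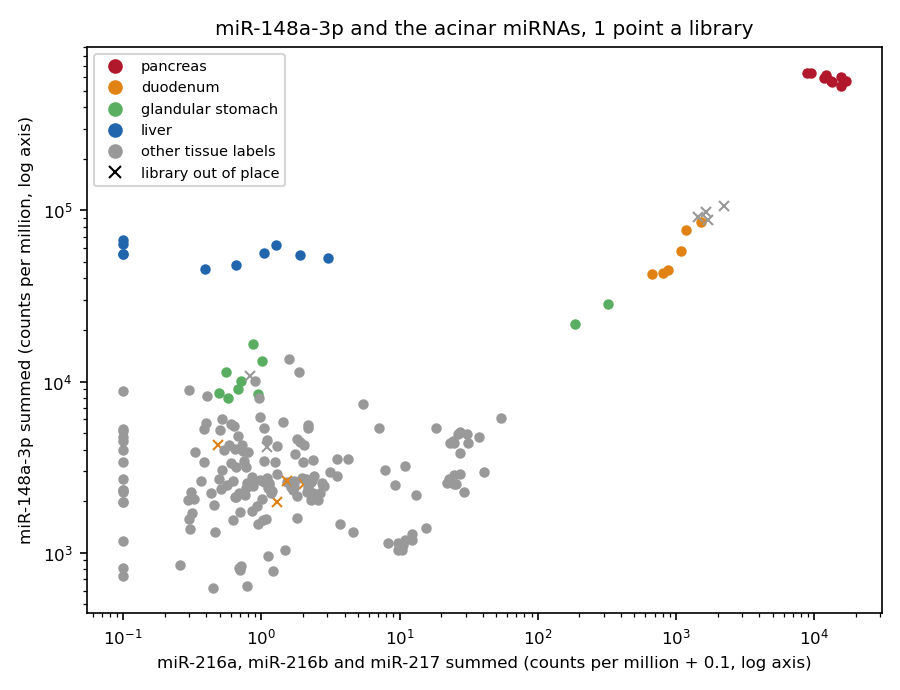
miR-148a-3p against the summed miR-216a, miR-216b and miR-217 names, both in CPM on log axes, 1 point per library, coloured by tissue for pancreas, duodenum, glandular stomach and liver and gray for the rest, with 0.1 added on the acinar axis. Pancreas libraries lie at 8922 to 16944 on the acinar axis, 6 duodenum libraries at 672 to 1515, and liver at 2.93 or less despite 45519 CPM or more of miR-148a-3p.

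Liver differs from duodenum in this respect. With miR-148a-3p at 45519 CPM or more in each library, the acinar names were at most 2.93 CPM there. A list of other pancreas microRNAs, chosen with earlier results known, was higher in the same contrast as miR-148a-3p. Of its 11 names 10 were tested, and 10 of 10 were called higher in pancreas by edgeR (29.5% of 1641 names were). Their median log2 fold was 10.1 against 0.17 for all names. The paper had already reported miR-216a-5p, miR-216b-5p, miR-217-5p, miR-375-3p, miR-141-3p and miR-200c-3p of this list as pancreas enriched in these data. It also named miR-148a-3p itself as pancreas enriched. The list therefore describes the pancreas libraries and is no independent test. miR-217-5p held a median of 5936 CPM and miR-216a-5p 4962, while miR-375-3p, known from endocrine islets, held 38037. The median of miR-148a-3p, 600319 CPM, was above that of each of them. One of the 10, miR-802-5p, had a higher median in liver (1055 CPM) than in pancreas (245 CPM). The paper states that ligase bias, which over- or under-represents some microRNAs in sequencing, affected the quantities of miR-216a-5p, miR-375-3p and miR-148a-3p. By its qPCR these appeared at roughly equal amounts in pancreas. Gaps in CPM between different names therefore need not be gaps in amount.

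The names most like each member over the 23 tissues were searched among 769 names by Pearson's r of log2(mean CPM + 1), given as a description. For miR-148a-3p they were miR-216b-3p (r = 0.845), miR-216a-3p (0.837) and miR-216a-5p (0.832). For miR-148b-3p they were miR-872-5p (0.862), miR-505-3p (0.842) and miR-872-3p (0.828). For miR-152-3p they were miR-574-5p (0.819), chr3_9633-5p;miR-199a-5p (0.810) and miR-574-3p (0.786). These r include the libraries out of place. Without them the same names, in the order given, had r of 0.813, 0.798 and 0.809 for miR-148a-3p. For miR-148b-3p these were 0.861, 0.848 and 0.833, and for miR-152-3p 0.816, 0.815 and 0.747. The tissues share the same libraries for every name.

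The 3′ ends of the 3p arms varied by tissue. Among reads with the miR-148a-3p core 84.5% ended at base 22, as the most abundant sequence above does, with no base added. This end held 83.8% to 88.3% of the core reads in pancreas, against 73.3% to 79.1% in liver and 57.5% to 66.8% in whole blood, while duodenum overlapped with it at 82.5% to 85.6%. Over core reads, a base added after the data had been seen, pancreas was higher than all 18 other tissues of the same rats by 4.14 to 24.3 points (two-sided exact sign-flip test, largest adjusted p = 0.00391). Without the libraries out of place it was higher than 17 of 18, and duodenum no longer passed (86.6% in pancreas and 84.3% in duodenum of the same 6 rats, higher in 5 of 6, exact sign-flip adjusted p = 0.0625). Over all miR-148a-3p reads the counts were likewise 18 and 17 of 18, with an exact sign-flip adjusted p of 0.125 for duodenum in those 6 rats. Whole blood had the longer end at base 23 in 21.9% to 31.0% of reads, where no library in place of another tissue passed 13.2%.

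An added T separated the members. Of the miR-148b-3p reads with a core 50.5% ended in 2 T added after base 22 and 24.9% in 1, while 16.9% ended at base 22 with none. The shares below count every core read whose bases past the last one matching the hairpin are all T, wherever that base lies. For miR-148a-3p an added T was rare: 0.959% to 1.60% of core reads in pancreas, the lowest tissue, and 7.52% to 9.35% in liver, above every library in place of the other tissues. For miR-148b-3p it was 42.2% to 55.9% in pancreas with a median of 53.2%, against 78.0% to 83.2% in liver and, overlapping with pancreas, 47.9% to 70.9% in brainstem. Pancreas was lower than all 18 other tissues of the same rats for both members, by 1.06 to 6.92 points for miR-148a-3p (largest adjusted p = 0.00195) and 13.8 to 30.0 points for miR-148b-3p (largest adjusted p = 0.00391), by two-sided exact sign-flip tests. Without the libraries out of place pancreas was still lower than all 18 for both, by at least 0.741 points for miR-148a-3p (exact sign-flip test, largest adjusted p = 0.0312 for both). These shares were added after the data had been seen, and the part of the low RIN of pancreas in them and in the share ending at base 22 was not tested.

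**Figure D5:**
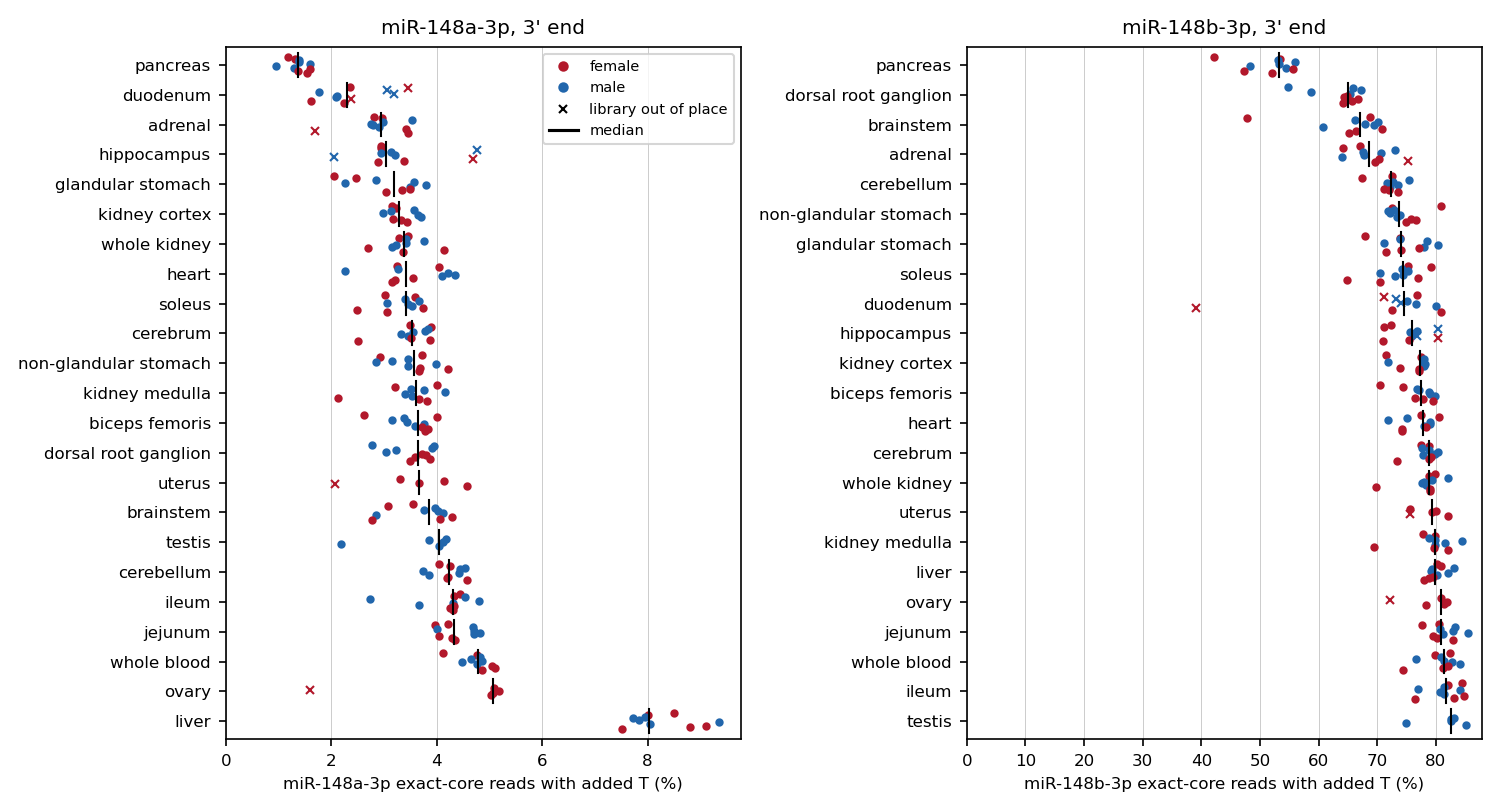
Percent of core reads with added T, in which all bases past the last one matching the hairpin are T, for miR-148a-3p and miR-148b-3p. There is 1 point per library by tissue, red for females and blue for males, with crosses for libraries out of place and a black line at each median. Liver stands highest for miR-148a-3p at 7.52% to 9.35%, and pancreas has the lowest median for both, 1.37% and 53.2%.

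Few differences between females and males passed the test. Of 133 pairs of a member name and a tissue tested by edgeR, 2 were called, where 1.49% of all such pairs were, and 10 had an unadjusted p under 0.05. Both were the miR-148a composites in hippocampus (7.22% of names there were called lower in females), at -3.20 for the 3p and -2.17 for the 5p as log2 female over male. The 10 libraries of that test include 3 out of place, 1 of which, a male, held 87683 CPM of miR-148a-3p. Without them the females held 2048 to 2737 CPM and the males 2480 to 2803, which overlap, and the difference was 0.0218 (edgeR adjusted p = 1). In pancreas no member was called, and its miR-148a-3p difference was -0.35 ± 0.61 (SE; edgeR adjusted p = 1). The libraries out of place also bear on tissues that hold none. For miR-152-3p in liver the SE was 0.53 with them and 0.25 without, where the difference was 0.86 (edgeR adjusted p = 0.122). A lack of calls in the fit with all libraries is therefore weak evidence of no difference.

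In the adrenal the female to male difference of the miR-148a-3p composite turned from 1.68 to -0.94 on the log2 scale when its 1 library out of place was left out. The 4 other females held 3974, 4183, 5192 and 5344 CPM of miR-148a-3p, and the 5 males held 5255, 8004, 8257, 8766 and 8899. The groups overlapped at 1 male. The composite was then called lower in females by 0.94 ± 0.25 on the log2 scale (edgeR adjusted p = 0.0464, with 0.735% of names called lower), whereas with that library the difference of 1.68 did not pass edgeR's test with the upper quartile (edgeR adjusted p = 0.146) but was called with library totals (1.66, edgeR adjusted p = 0.0302) and by DESeq2 (1.86, DESeq2 adjusted p = 0.0105). In liver miR-152-3p stood at 260 to 366 CPM in females with a median of 343, and at 149 to 214 in males with a median of 162. By the labels 4 of the 5 female and 1 of the 5 male livers came from RNA extracted again. The females held 260 to 364 CPM in those 4 and 366 in the other, and the males 214 in that 1 and 149 to 175 in the other 4, so the sexes were unbalanced in extraction and its part was not tested. The sexes did not overlap, as was true of 5.5% of the 618 names with a mean of at least 1 CPM in liver. The difference of 0.79 ± 0.53 did not pass (edgeR adjusted p = 1), and its adjusted p ran from 0.0181 to 1 over 19 alternatives.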

How the data were processed

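Small RNA of 215 libraries was sequenced in 458 runs, and the authors deposited raw read counts per microRNA name and per isomiR sequence. Per the study's methods, the authors trimmed adapters with cutadapt (version 1.4.1; minimum length 17, base quality 20), discarded reads with undetermined bases, and named sequences with miRDeep2 against miRBase, rat names first, then mouse, human and C. elegans, with hairpins predicted on rn5 added. A sequence fitting several precursors got a composite name, and this order of naming can move reads between near-identical members.

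From these counts, 14 runs that named a lane of the same library again were set aside and the 444 others were summed by library. Dorsal root ganglion libraries were summed within the 2 pools for tests. Tissues and sexes were compared with edgeR (4.0.16; upper-quartile scaling, low counts filtered, quasi-likelihood test, Benjamini-Hochberg adjusted p under 0.05) in R 4.3.3, over all names. Shares were compared within rats by exact sign-flip tests, on libraries with at least 100 reads of the member (Python 3.11.15, numpy 2.4.6, pandas 2.3.3, scipy 1.17.1; figures with matplotlib 3.10.9). The sign-flip test and the upper-quartile edgeR fits were tested on simulated data. Alternatives were TMM, library totals alone, DESeq2 (1.42.0), no filter, other choices of runs, and CPM with the members left out of the base. Others were the libraries out of place left out, each rat left out, and the rat as a block. Library totals without the libraries out of place, exact-core reads of miR-148b-3p and the shares named as added were chosen after the data had been seen. The rat numbers pair libraries because they come from the same animal. Deviations from the tissue mean correlated with a median of 0.0158 over 2000 pairs of libraries of the same rat and -0.00613 over 18025 pairs of different rats.

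The members and gene lists were chosen with earlier results of these data known. Members with a mean of at least 1 CPM in a tissue are named, with the leading isomiRs, a set list of pancreas microRNAs, and the 3 names most like each member among names with a mean of at least 10 CPM in a tissue. The mature sequence of miR-148b-5p was not analysed here beyond the deposited reads.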

Additional observations from a re-analysis of the deposited data

Results flagged for a closer look

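In 15 of 88 groups of a tissue and a measure, 1 library stood apart from the others by Dixon's criterion, which chance alone meets in about 1 group in 20. In 6 of the 15 the library was one of those out of place. For miR-148a-3p these were adrenal rat 8 (105443 CPM, tissue median 6674), hippocampus rat 6 (87683 CPM, median 2705), ovary rat 11 (97455 CPM, median 11357) and uterus rat 8 (91507 CPM, median 3403). For the 5p share of miR-148a reads they were duodenum rat 7 (16.0%, median 1.93%) and hippocampus rat 6 (1.52%, median 3.43%).

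The other 9 were libraries in place. miR-148a-3p was high in biceps femoris of rat 2 (4275 CPM, median 2367) and testis of rat 3 (7431 CPM, median 5375). miR-148b-3p was low in cerebrum of rat 9 (431 CPM, median 720) and high in pancreas of rat 7 (854 CPM, median 518). miR-152-3p was high in biceps femoris of rat 2 (172 CPM, median 102) and whole blood of rat 6 (5.08 CPM, median 0.743). The 5p share of miR-148a reads was low in heart of rat 3 (0.988%, median 2.05%), ileum of rat 3 (1.21%, median 3.06%) and whole kidney of rat 7 (1.16%, median 2.50%).

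The sex difference in hippocampus differed from its mean over the other 18 tissues for the miR-148a-3p composite (-3.29, log2 female over male) and for the miR-148a-5p composite (-2.16), as tested in edgeR. That tissue holds 3 libraries out of place, and without them the hippocampus differences were 0.0218 and 0.163.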

How the results depend on the processing

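The pancreas difference of summed miR-148a-3p was 6.88 to 7.09 with each rat left out, and 3.10 to 3.33 against liver. Member calls then numbered 45 to 52 higher and 41 to 43 lower. With the rat as a replicate block, and the dorsal root ganglion pools left out, these values were 6.95, 3.502, 46 and 45. The counts of calls therefore moved and cover fewer tissues. They are among the 20 results refitted, of which the others, each a name in a contrast, kept their call. Calls between the sexes, 2 in all, numbered 5 without the filter, 5 with TMM, 4 with DESeq2, 1 without the libraries out of place, and 0 to 8 with each rat left out (0 without rat 6, 8 without rat 7, 4 without rat 4). Directions turned for miR-148b-3p in pancreas with exact-core reads (-0.19), where reads without the core are left out, and in whole blood (-0.53, or -0.51 also without the libraries out of place) and duodenum (0.25, from -0.16, which did not pass) with library totals, where the cause was not tested. They also turned for the hippocampus sex differences without the libraries out of place (0.0218 for the 3p composite and 0.163 for the 5p, or 0.0697 with library totals). The 5p share of miR-148a was lower in pancreas than in 17 to 18 of 18 tissues with each rat left out. Depth limits the single names, the composite of miR-148b-3p with miR-152-3p, and miR-152-3p in whole blood.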

Other observations

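On 1 lane 59.7% to 63.5% of the miR-148a-3p core reads in 14 runs began 1 base earlier than the mature sequence, with a median of 61.2%. In 430 runs of other lanes this share was 0% to 0.268%. No difference between pancreas and the other tissues of the same rats passed the exact sign-flip test for this share (0 of 18 tissues, smallest unadjusted p = 0.502). The share of a library depended on whether it had a run on that lane, so this test cannot compare tissues.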
